A study of Arabidopsis thaliana with 8 samples.

Results

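A set of 51 genes of Arabidopsis thaliana was high in seedlings that overexpressed a stabilized form of SPEECHLESS (SPCH) and low both in overexpressing seedlings that carried the basl-2 mutation and in the wild type. The genes were chosen on the deposited signal itself, from 18855 listed genes, by the means of the 3 genotypes. Each had a mean of at least 5 in SPCHΔ49, at least 2.5 times the mean of SPCHΔ49 basl-2 and at least 2.5 times the mean of the wild type, and its lowest SPCHΔ49 library lay above every library of the other genotypes. In all 64 genes met these thresholds, and 13 of them that are named components of the stomatal lineage or of epidermal patterning (SPCH, BASL, TMM, POLAR, SCRM, SCRM2, ERL1, ERL2, EPF2, SOL1, TCX2, ETC3 and MYC1) were set aside. The 51 genes are what remained.

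RNA came from whole seedlings, 12 days old, grown without treatment. SPCHΔ49 basl-2 (3 libraries) carried 35S:SPCHΔ49 in the basl-2 mutant, SPCHΔ49 (3 libraries) carried 35S:SPCHΔ49 without that mutation, and WT (2 libraries) carried no transgene. The 35S promoter drives expression in nearly all cells, so the transgene is not confined to the epidermis, and the sources used here say neither how many transgenic lines were sampled nor whether both overexpressors carry the same insertion. Nothing in the labels tells whether replicates were separate growths, and the p-values cover the spread between libraries alone, which may be technical. The values, labelled TPM by the authors, scale with transcript abundance per length and are called signal here. No read counts were used, so the depth and the counting error of low values are unknown.

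SPCH, a basic helix-loop-helix protein, switches leaf epidermal cells into the lineage that makes stomata, and with its partners SCRM and SCRM2 it binds DNA at E-boxes. MAP kinases phosphorylate SPCH and so mark it for degradation, and the SPCHΔ49 form escapes this. BASL is a polarity protein that sits at one side of the dividing lineage cell and recruits the MAP kinase cascade, so that SPCH is lost from one of the daughters. TMM and the ERECTA-family receptor kinases perceive the secreted EPF peptides, which limit the number of lineage cells.

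SPCH itself (AT5G53210) had signals of 397.2, 337.9 and 486.6 in SPCHΔ49 basl-2, of 2628, 2357 and 2488 in SPCHΔ49, and of 8.20 and 5.65 in WT. The transcript of the driving factor was thus at 16.4% of its SPCHΔ49 level in the mutant background, with no overlap between the 3 genotypes. The effect of the basl-2 mutation on the 51 genes and that of less SPCH transcript cannot be told apart. BASL (AT5G60880) had 2.095, 3.23 and 2.90 in SPCHΔ49 basl-2, 59.7, 58.1 and 35.3 in SPCHΔ49, and 3.34 and 3.52 in WT. The BASL signal in SPCHΔ49 basl-2 was thus close to that in WT (limma adjusted p = 0.450), so its level does not by itself check the mutation.

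The libraries also differed in markers of other tissues, although the labels give whole seedlings throughout. The summed signal of 11 listed root markers ranged from 160.5 to 275.6 in SPCHΔ49 basl-2 and from 89.8 to 143.9 in SPCHΔ49, and was 2146 and 2262 in WT. The root hair expansin EXPA18 was listed at 0 in all 6 overexpressor libraries. The sum of 16 guard cell markers ranged from 1546 to 2220 in SPCHΔ49 basl-2, from 1269 to 1536 in SPCHΔ49 and from 1062 to 1069 in WT. The sum of 11 mesophyll markers ranged from 42150 to 49440 in SPCHΔ49 basl-2, from 29580 to 39860 in SPCHΔ49 and from 57680 to 58340 in WT. That of 6 vascular markers ranged from 104.3 to 147.5 in SPCHΔ49 basl-2, from 99.2 to 124.7 in SPCHΔ49 and from 190.6 to 202.3 in WT. In SPCHΔ49 basl-2 against SPCHΔ49, limma called 0 of the root, mesophyll and vascular markers, with 2, 3 and 1 at an unadjusted p under 0.05. The log2 fold change was above 0 in 6 of 11 root, 11 of 11 mesophyll and 5 of 6 vascular markers. Over all 18855 genes it was above 0 in 8643. The medians of the root, mesophyll and vascular markers were 0.005, 0.35 and 0.17. Their part in the levels of the 51 genes was not tested. In these bulk samples fewer cells of a type and less RNA per cell cannot be told apart.

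Over the whole set, the 51 genes summed to a signal of 1106, 997 and 1021 in SPCHΔ49 basl-2, of 5043, 4592 and 3780 in SPCHΔ49, and of 661 and 555 in WT. They made up 0.0936% to 0.106% of the total signal of a SPCHΔ49 basl-2 library, 0.4435% to 0.529% of a SPCHΔ49 library and 0.0549% to 0.0656% of a WT library. A median gene of the set had a mean of 6.61 in SPCHΔ49 basl-2, 23.0 in SPCHΔ49 and 3.71 in WT, and the SPCHΔ49 means ran from 5.24 to 1993. In SPCHΔ49 basl-2 the genes stood at 2.67% to 38.6% of their SPCHΔ49 level, with a median of 27.6%.

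**Figure D1:**
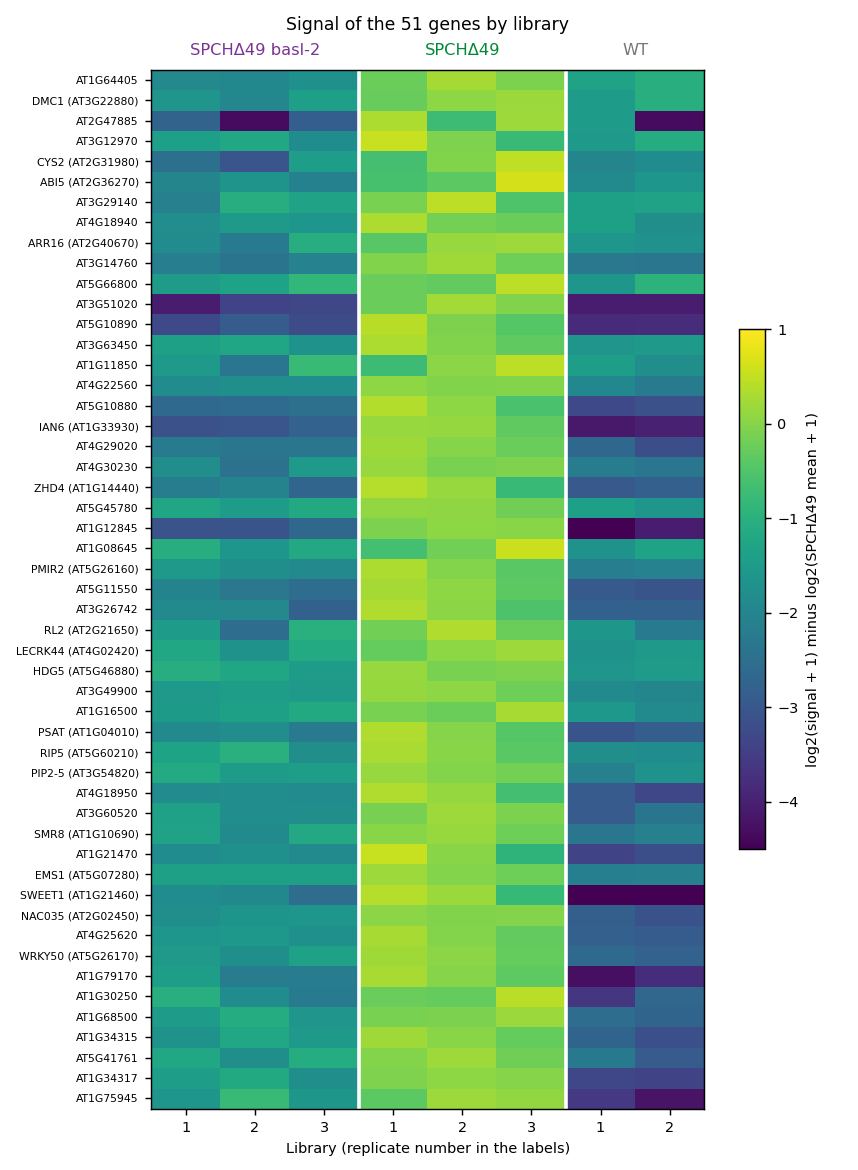
Signal of the 51 genes in each library (columns, grouped by genotype), shown by colour as log2(signal + 1) minus log2 of the SPCHΔ49 mean + 1, with the genes ordered from the smallest share of the rise over WT left in SPCHΔ49 basl-2 (top) to the largest (bottom). The 3 SPCHΔ49 columns are bright by the way the genes were chosen, while the WT columns are darker than the SPCHΔ49 basl-2 columns for most genes in the lower part.

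The set is a small part of what the overexpressor raised. By the same thresholds against WT alone, 423 genes were high in SPCHΔ49. Of these, 64 (15.1%) were also low in SPCHΔ49 basl-2, while 212 had a SPCHΔ49 basl-2 mean within 1.5-fold of the SPCHΔ49 mean, and in 125 it was equal or higher. Over all 423 genes the median level in SPCHΔ49 basl-2 was 75.3% of that in SPCHΔ49. At the edge of the fold threshold, the SPCHΔ49 mean was 2.54 times the higher of the other means for DMC1, 2.59 times for RIP5 and 2.61 times for AT5G66800. Just outside were NAC041 with 2.499 times, AT2G31141 with 2.49 times and AT1G79630 with 2.41 times. At the edge of the level threshold AT1G64405 (5.24) and ARR16 (6.29) were inside, and AT3G26960 (4.34) and the receptor kinase gene MRLK (4.23) outside.

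In the test across all genes (limma on log2(signal + 1), adjusted p under 0.05), 43 of the 51 genes were lower in SPCHΔ49 basl-2 than in SPCHΔ49, beside 3.36% of all genes called lower and 2.05% called higher. Without SPCHΔ49 replicate 2 the count was 26. In SPCHΔ49 against WT 49 were higher, beside 9.9% of all genes called higher and 17.3% called lower. The genes were chosen on these contrasts, so the counts only describe them. The median log2 fold change was -1.65 in SPCHΔ49 basl-2 against SPCHΔ49 and 2.31 in SPCHΔ49 against WT, where the medians of all genes were -0.03 and -0.01. The 8 genes below the test's threshold between the overexpressors, all with an unadjusted p under 0.05, were AT1G08645, AT1G11850, AT1G30250, AT1G75945, RL2, AT2G47885, AT3G12970 and AT5G66800.

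**Figure D2:**
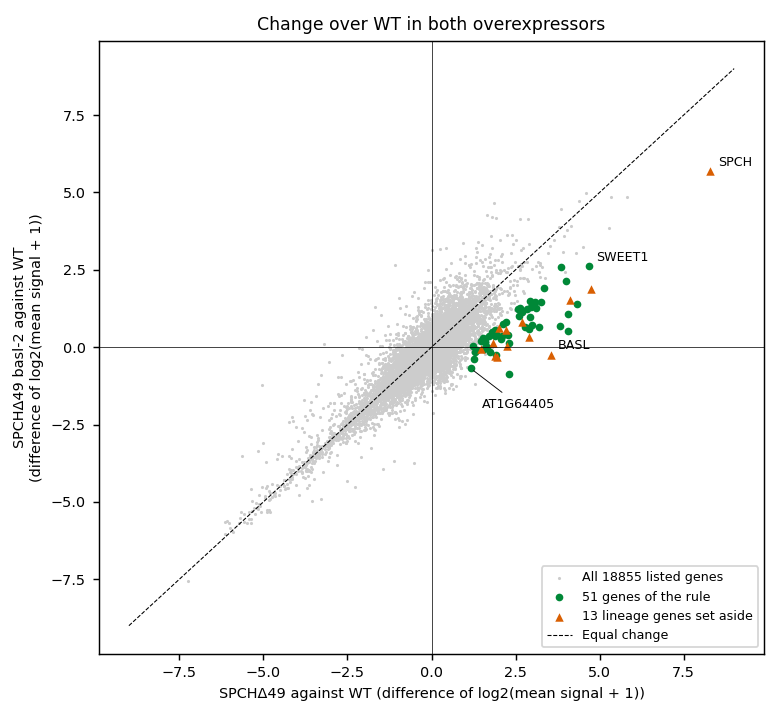
Change over WT in SPCHΔ49 (horizontal axis) and in SPCHΔ49 basl-2 (vertical axis), as differences of log2(mean signal + 1), for all 18855 listed genes (grey), the 51 genes (green circles) and the 13 lineage genes set aside (orange triangles). All 51 genes lie below the line of equal change, as their choice requires, and SPCH lies far to the right, above the WT level in both overexpressors.

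Some of the largest ratios belonged to genes of low signal outside SPCHΔ49, and others to genes that were well above 0 in every library. AT3G51020, annotated as a metal ion-binding protein, had 0, 0.603 and 0.656 in SPCHΔ49 basl-2, 13.1, 18.8 and 15.3 in SPCHΔ49, and was listed at 0 in both WT libraries. AT5G10890, annotated as a myosin heavy chain-like protein, had 2.94, 4.18 and 3.10 in SPCHΔ49 basl-2, 50.1, 35.6 and 27.1 in SPCHΔ49, and 1.72 and 1.75 in WT. Its SPCHΔ49 mean was 11.0 times that of SPCHΔ49 basl-2, the higher of the other means. AT5G10880, a tRNA ligase-like gene next to it, had 0.973, 1.01 and 1.18 in SPCHΔ49 basl-2, 14.4, 11.6 and 7.11 in SPCHΔ49, and 0.240 and 0.366 in WT. IAN6 (AT1G33930), one of a family of small GTPase genes related to the AIG1 defence gene, had 3.20, 3.41 and 4.41 in SPCHΔ49 basl-2, 40.1, 39.4 and 27.9 in SPCHΔ49, and 1.12 and 1.30 in WT. For IAN6 the ratio was 9.74. The uncharacterized gene AT1G12845 had 18.3, 18.7 and 25.1 in SPCHΔ49 basl-2, 153.2, 171.9 and 165.7 in SPCHΔ49, and 5.60 and 8.92 in WT, a ratio of 7.91. The ratios of AT3G26742, AT4G30230, AT2G47885, ABI5, ZHD4 and AT4G29020 were 8.00, 6.24, 6.14, 5.31, 4.995 and 4.93. That of AT2G47885, whose WT signals were 6.24 and 0, became 15.2 when WT replicate 1 was left out and 3.07 when WT replicate 2 was left out.

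The most abundant gene of the set by far was AT4G29020, which encodes a glycine-rich protein. It had 428.1, 392.1 and 392.3 in SPCHΔ49 basl-2, 2314, 2008 and 1659 in SPCHΔ49, and 311.9 and 220.2 in WT. Its SPCHΔ49 mean of 1993 stood beside 2491 for SPCH. AT5G11550, an ARM repeat gene, followed with 80.4, 64.4 and 55.3 in SPCHΔ49 basl-2, 389.3, 344.5 and 248.6 in SPCHΔ49, and 42.0 and 38.1 in WT. SWEET1 (AT1G21460), a glucose transporter of the plasma membrane, had 73.8, 68.4 and 44.8 in SPCHΔ49 basl-2, 346.9, 295.8 and 148.9 in SPCHΔ49, and 10.5 and 8.26 in WT. In SWEET1 the 3 genotypes were separate from each other, with SPCHΔ49 basl-2 between the other genotypes. Among the abundant genes the uncharacterized AT1G11850 varied most within SPCHΔ49 basl-2. It had 60.4, 33.7 and 100.1 in SPCHΔ49 basl-2, 105.2, 180.6 and 240.7 in SPCHΔ49, and 64.6 and 50.4 in WT. Its SPCHΔ49 libraries spanned more than a 2-fold range, as did those of SWEET1 and ZHD4. For AT1G11850 SPCHΔ49 basl-2 overlapped WT. AT4G25620, annotated as a hydroxyproline-rich glycoprotein, had 53.8, 55.4 and 48.8 in SPCHΔ49 basl-2, 200.2, 164.2 and 131.7 in SPCHΔ49, and 22.8 and 21.3 in WT.

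By keyword in the annotated product names, 7 of the 51 genes (13.7%) were transcription factors or response regulators, beside 4.71% of the listed genes. Such a search misses factors worded otherwise, such as the myb domain protein MYB58, and takes in other proteins with a zinc finger. The class shares given here and below are those of keywords and do not measure the classes. The homeodomain gene ZHD4 (AT1G14440), of the zinc-finger homeodomain class, had 31.1, 34.0 and 21.2 in SPCHΔ49 basl-2, 188.8, 160.3 and 82.4 in SPCHΔ49, and 17.6 and 19.6 in WT. NAC035 (AT2G02450), a NAC-domain factor, had 22.2, 23.9 and 24.6 in SPCHΔ49 basl-2, 80.0, 75.8 and 77.0 in SPCHΔ49, and 10.1 and 8.08 in WT. NAC035 was the most even of the regulators across libraries, with the genotypes in 3 separate bands. WRKY50 (AT5G26170), a defence-related WRKY factor, had 6.73, 5.69 and 7.84 in SPCHΔ49 basl-2, 25.3, 22.4 and 17.4 in SPCHΔ49, and 2.70 and 2.35 in WT. HDG5 (AT5G46880), an epidermal factor of the class IV homeodomain-leucine zipper family, had 5.33, 4.58 and 3.78 in SPCHΔ49 basl-2, 13.8, 11.3 and 11.7 in SPCHΔ49, and 3.28 and 3.80 in WT. In HDG5 SPCHΔ49 basl-2 overlapped WT.

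The other regulators were low-abundance genes. RL2 (AT2G21650), a small MYB-like protein of the RADIALIS-like family, had 1.84, 0.348 and 2.90 in SPCHΔ49 basl-2, 5.94, 8.92 and 5.64 in SPCHΔ49, and 1.60 and 0.633 in WT. ABI5 (AT2G36270), the bZIP factor of the abscisic acid response in seeds, had 0.846, 1.35 and 0.751 in SPCHΔ49 basl-2, 3.91, 4.69 and 10.7 in SPCHΔ49, and 1.003 and 1.41 in WT. The ABI5 mean rested to a large part on SPCHΔ49 replicate 3, which was over 2 times as high as the others. ARR16 (AT2G40670), a type-A response regulator of cytokinin signalling, had 1.03, 0.525 and 2.47 in SPCHΔ49 basl-2, 4.42, 7.06 and 7.40 in SPCHΔ49, and 1.39 and 1.23 in WT. For all 3 of these genes SPCHΔ49 basl-2 overlapped WT.

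**Figure D3:**
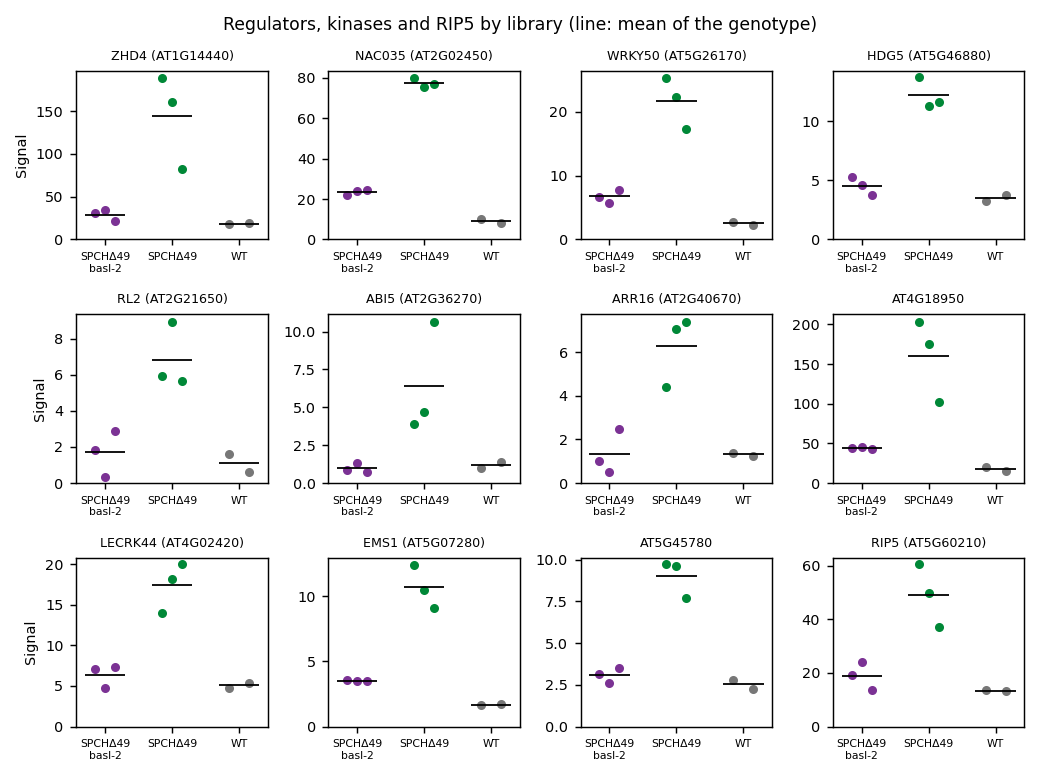
Signal (vertical axes, linear, each from 0) of the 7 transcription factor or response regulator genes, the 4 kinase or receptor genes and RIP5 in each library, with the mean of the genotype as a line. NAC035, WRKY50, AT4G18950 and EMS1 show 3 separate bands, whereas the SPCHΔ49 basl-2 points of HDG5, RL2, ABI5, ARR16, LECRK44 and AT5G45780 fall among or around the WT points.

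The keywords for kinases and receptors matched 4 of the 51 genes (7.84%), beside 3.10% of the listed genes. The search depended on capital letters and missed products worded "Protein kinase superfamily protein", such as WAKL21 (AT5G66790). No gene of the set has that wording. The share of the listed genes is therefore too low, and the higher share of the set cannot be read as a difference. AT4G18950, annotated as an integrin-linked protein kinase, had 44.0, 44.9 and 43.5 in SPCHΔ49 basl-2, 203.4, 175.1 and 101.7 in SPCHΔ49, and 20.4 and 15.1 in WT. EMS1 (AT5G07280), the leucine-rich repeat receptor kinase that specifies the tapetum in anthers, had 3.53, 3.49 and 3.48 in SPCHΔ49 basl-2, 12.4, 10.5 and 9.07 in SPCHΔ49, and 1.66 and 1.70 in WT. The lectin receptor kinase gene LECRK44 (AT4G02420) had 7.04, 4.74 and 7.36 in SPCHΔ49 basl-2, 14.0, 18.2 and 20.1 in SPCHΔ49, and 4.79 and 5.42 in WT. The receptor-like kinase gene AT5G45780 had means of 3.09 ± 0.438 in SPCHΔ49 basl-2, 9.04 ± 1.14 in SPCHΔ49 (SD, n = 3 each) and 2.53 ± 0.391 in WT (SD, n = 2). RIP5 (AT5G60210) belongs to the proteins that bind ROP GTPases, which organize cell polarity in plants, and had 19.4, 24.0 and 13.6 in SPCHΔ49 basl-2, 60.6, 49.9 and 37.0 in SPCHΔ49, and 13.6 and 13.1 in WT.

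Single genes of other functions were also in the set. SMR8 (AT1G10690), a cyclin-dependent kinase inhibitor of the SIAMESE-related family, had 11.3, 7.38 and 12.7 in SPCHΔ49 basl-2, 30.4, 33.4 and 25.8 in SPCHΔ49, and 5.05 and 6.14 in WT. PSAT (AT1G04010), which esterifies sterols, had 10.9, 11.4 and 8.19 in SPCHΔ49 basl-2, 54.2, 42.5 and 31.1 in SPCHΔ49, and 4.22 and 5.14 in WT. The aquaporin gene PIP2-5 (AT3G54820) was, with SWEET1, the other transporter of the set, and had 14.0, 10.9 and 11.3 in SPCHΔ49 basl-2, 36.1, 31.6 and 29.0 in SPCHΔ49, and 6.73 and 9.20 in WT. Transporters made up 3.92% of the set and 2.25% of the listed genes. DMC1 (AT3G22880), the recombinase of meiosis, had 6.78, 5.31 and 8.28 in SPCHΔ49 basl-2, 19.1, 24.2 and 26.5 in SPCHΔ49, and 7.72 and 10.6 in WT. CYS2 (AT2G31980), an inhibitor of cysteine proteases, had 6.98, 4.41 and 15.5 in SPCHΔ49 basl-2, 27.97, 42.1 and 60.4 in SPCHΔ49, and 10.1 and 11.6 in WT. Both DMC1 and CYS2 had a lower mean in SPCHΔ49 basl-2 than in WT, with overlapping libraries. No cytochrome P450 or cell wall enzyme gene was in the set, beside 0.674% and 1.098% of the listed genes.

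Another 9 annotated genes (AT1G16500, AT3G12970, AT3G49900, AT3G60520, AT3G63450, AT4G18940, AT4G22560, PMIR2 and AT5G66800) had SPCHΔ49 basl-2 means of 23.1% to 38.3% of their SPCHΔ49 means, which ran from 7.46 to 57.2. The NPH3-family gene AT3G49900 had 6.24, 6.82 and 6.32 in SPCHΔ49 basl-2, 22.1, 21.1 and 17.2 in SPCHΔ49, and 4.74 and 4.37 in WT. AT3G60520, annotated as a zinc ion-binding protein, had 22.0, 15.6 and 16.0 in SPCHΔ49 basl-2, 52.2, 65.9 and 53.6 in SPCHΔ49, and 6.65 and 10.3 in WT. In both genes the libraries of the 3 genotypes were separate.

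Genes annotated only as uncharacterized proteins were the largest class, with 17 of 51 (33.3%) beside 6.50% of the listed genes. Their SPCHΔ49 means ran from 5.24 (AT1G64405) to 175.5 (AT1G11850). AT3G14760 had 11.1, 9.28 and 11.9 in SPCHΔ49 basl-2, 50.99, 61.2 and 45.3 in SPCHΔ49, and 9.84 and 9.63 in WT, so that SPCHΔ49 basl-2 lay around the WT values. AT1G34317 had 9.76, 12.0 and 7.60 in SPCHΔ49 basl-2, 26.7, 29.2 and 28.2 in SPCHΔ49, and 1.90 and 1.81 in WT. AT1G68500 had 9.34, 12.3 and 8.13 in SPCHΔ49 basl-2, 25.4, 25.7 and 30.9 in SPCHΔ49, and 3.86 and 3.30 in WT. In AT1G34317 and AT1G68500 every SPCHΔ49 basl-2 library lay above both WT libraries.

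The genes of the set were short, with a median coding length of 744 bases (138 to 3579) beside 1140 over the listed genes, and with a median of 2 coding exons beside 4. The median coefficient of variation between libraries was 20.1% in SPCHΔ49 basl-2, 21.9% in SPCHΔ49 and 16.4% in WT for the set. For all genes with a SPCHΔ49 mean of at least 5 it was 13.4% in SPCHΔ49 basl-2, 11.0% in SPCHΔ49 and 6.35% in WT. These genes were limited by their SPCHΔ49 level only. The choice of the set keeps its genes low in SPCHΔ49 basl-2 and WT, so the values there are not matched for level.

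The genes were also compared between the mutant overexpressor and the wild type. In SPCHΔ49 basl-2 against WT, 23 of the 51 genes were higher and 1 was lower, beside 12.6% of all genes called higher and 21.6% called lower. Of all calls in this comparison 36.9% were higher, against 48.9% after quantile normalization, where 29 of the 51 genes were higher. The rule did not set these genotypes against each other, but it capped both relative to SPCHΔ49 and used the same WT libraries, so the comparison was not independent of the choice. The median log2 fold change of the set was 0.55 and that of all genes -0.06, and the mean of SPCHΔ49 basl-2 lay above that of WT in 43 of 51 genes. The libraries did not overlap in 31 genes, of which 30 were higher in SPCHΔ49 basl-2 and 1 was lower, beside 26.5% of all genes without overlap and higher and 35.5% without overlap and lower. Expressed as a share of the rise of the SPCHΔ49 mean over the WT mean, a median of 9.27% was left in SPCHΔ49 basl-2, with a range of -30.5% to 37.0%. The 2.5-fold threshold between the overexpressors puts an upper limit on this share, so its values are bounded by the choice of the genes. The share was below 0 in 8 genes, from 0 to 10% in 19, from 10% to 20% in 10, from 20% to 30% in 12 and above 30% in 2. For SPCH itself it was 16.1%, and over the 13 lineage genes set aside, SPCH among them, the median was 3.94%.

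**Figure D4:**
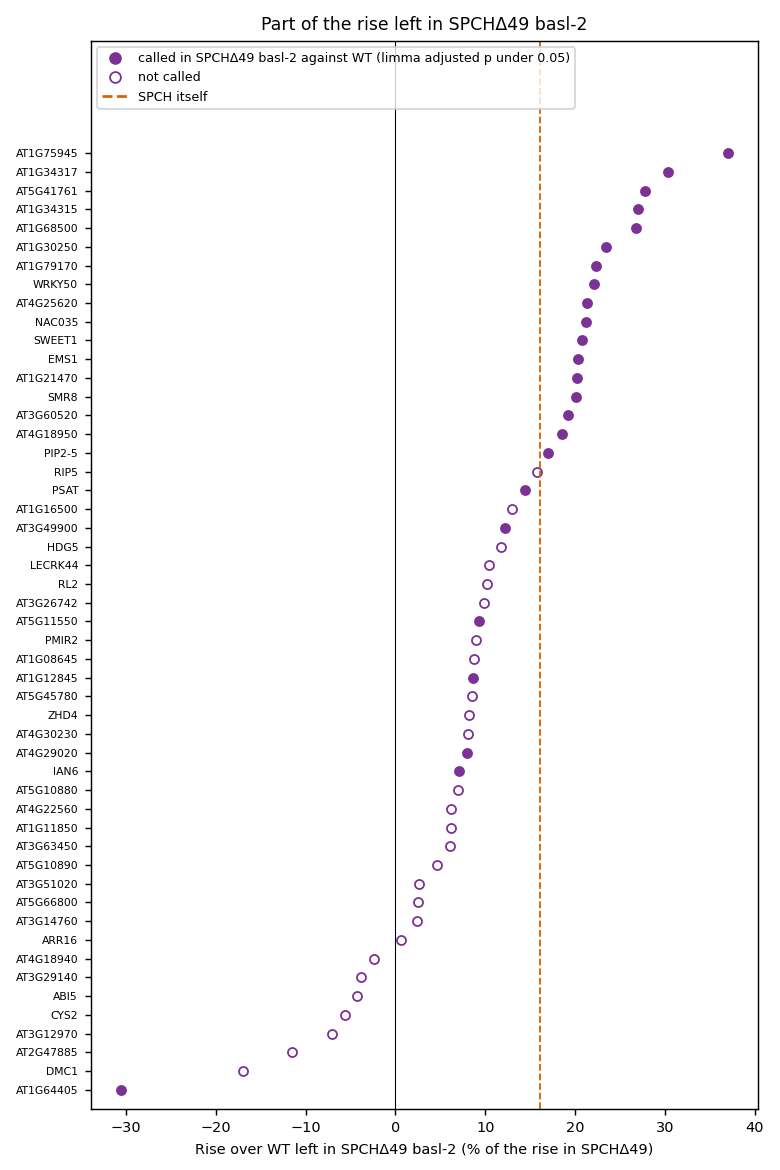
Share of the rise over WT that was left in SPCHΔ49 basl-2 (horizontal axis, % of the SPCHΔ49 mean minus the WT mean) for each of the 51 genes, with filled points for genes called between SPCHΔ49 basl-2 and WT (limma adjusted p under 0.05) and a dashed line for SPCH itself (16.1%). The points run from -30.5% (AT1G64405) to 37.0% (AT1G75945), and most of the called genes lie to the right of the dashed line. The choice of the genes limits the share from above.

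On the log2(signal + 1) scale, which compresses low values, SWEET1 had the largest difference from WT, with a log2 fold change of 2.59 (SE 0.37) in SPCHΔ49 basl-2 against WT and a limma adjusted p of 0.00250. AT1G75945, an uncharacterized gene, had 4.93, 9.81 and 5.08 in SPCHΔ49 basl-2, 13.2, 20.1 and 19.0 in SPCHΔ49, and 0.536 and 0 in WT. Its log2 fold change in SPCHΔ49 basl-2 against WT was 2.56 (SE 0.33, limma adjusted p = 0.00155). As a plain ratio of means, SPCHΔ49 basl-2 was at 24.7 times WT for AT1G75945, 8.57 times for AT1G21470 and 6.66 times for SWEET1. AT1G79170, also uncharacterized, had 47.2, 27.3 and 27.2 in SPCHΔ49 basl-2, 155.4, 128.2 and 98.8 in SPCHΔ49, and 5.62 and 8.33 in WT. The log2 fold change of AT1G79170 was 2.102 (SE 0.30, limma adjusted p = 0.00234). The partly overlapping genes AT1G34317 and AT1G34315 had log2 fold changes of 1.90 (SE 0.17) and 1.48 (SE 0.22). These were followed by AT1G21470 with 1.46 (SE 0.38), AT1G30250 with 1.45 (SE 0.43) and AT1G12845 with 1.41 (SE 0.20). Among the regulators NAC035 had 1.29 (SE 0.11, limma adjusted p = 0.000209) and WRKY50 1.13 (SE 0.19, limma adjusted p = 0.00435). Each of these genes was higher in all 3 SPCHΔ49 basl-2 libraries than in both WT libraries.

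The calls for AT1G12845, SWEET1, AT1G34315, AT1G34317, AT1G68500, AT1G75945, AT1G79170, NAC035, AT4G25620 and WRKY50 held under all 13 alternative settings. Each of the other calls was lost under at least 1 setting. Leaving out either one of the WT libraries left 13 genes called higher, beside 23 with all libraries. AT1G21470 lost its call without either WT library and without SPCHΔ49 basl-2 replicates 1 or 2, and AT1G30250 in 7 of the 13 settings, where its adjusted p reached 0.244. The gene that was lower, AT1G64405, is uncharacterized and had 0.665, 0.630 and 0.881 in SPCHΔ49 basl-2, 4.30, 6.52 and 4.90 in SPCHΔ49, and 1.497 and 2.07 in WT. Its log2 fold change in SPCHΔ49 basl-2 against WT was -0.68 (SE 0.18, limma adjusted p = 0.0250), and it lost its call after quantile normalization (adjusted p 0.710), without either WT library and without SPCHΔ49 basl-2 replicates 1 or 2.

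The genes differed in which SPCHΔ49 library was highest. The highest of the 3 libraries was replicate 1 for 29 genes (56.9%), replicate 2 for 11 (21.6%) and replicate 3 for 11 (21.6%). Over all 14064 genes with a SPCHΔ49 mean of at least 5 it was replicate 1 for 41.5%, replicate 2 for 20.6% and replicate 3 for 37.9%. Of the 13 lineage genes set aside, 10 were highest in replicate 1, 3 in replicate 2 and 0 in replicate 3, and TMM had 522.1, 406.3 and 296.5 in replicates 1 to 3. SWEET1, ZHD4, AT4G18950, AT1G21470 and AT5G10890 were likewise highest in replicate 1 and lowest in replicate 3. The 11 genes highest in replicate 3 were AT1G08645, AT1G11850, AT1G16500, AT1G30250, AT1G68500, CYS2, ABI5, ARR16, DMC1, LECRK44 and AT5G66800. The ratio of replicate 1 to replicate 3 ran from 0.367 (ABI5) to 3.08 (AT1G21470), and its median was 1.19 over the set and 1.02 over all genes of that level. The labels give a number only and do not say whether same-numbered libraries were paired. Of the 11 genes highest in SPCHΔ49 replicate 3, 7 were highest in replicate 3 within SPCHΔ49 basl-2 too. Of the 29 highest in SPCHΔ49 replicate 1, 10, 13 and 6 were highest in SPCHΔ49 basl-2 replicates 1, 2 and 3. The matching counts over all genes were not taken, so these are not particular to the set. Over all genes, deviations from the genotype mean correlated at 0.756 between replicate 3 of both overexpressors. Between SPCHΔ49 replicate 1 and SPCHΔ49 basl-2 replicate 2 the correlation was 0.772.

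Several of the genes lay next to each other in the genome. In the reference annotation 5 pairs of adjacent protein-coding genes were both in the set, and a sixth pair joined AT3G26742 to SCRM. SWEET1 and AT1G21470 stood on the same strand with 2527 bases between them, as did AT4G18940 and AT4G18950 with 1348 bases. PMIR2 and WRKY50 converged with 203 bases between them, AT5G10880 and AT5G10890 converged with an overlap of 126 bases, and AT1G34315 and AT1G34317 diverged with an overlap of 410 bases. AT3G26742 converged with SCRM at a distance of 808 bases, and AT1G12845 was separated from SCRM2, the paralogue of SCRM, by 2 genes. In all 11 of the 51 genes were in such adjacent pairs. Adjacent pairs were not counted in other gene sets of this size, so the number is a description and shows no clustering. The overlapping pairs may also share reads. AT3G26742 had 1.33, 1.26 and 0.210 in SPCHΔ49 basl-2, 9.73, 7.76 and 4.83 in SPCHΔ49, and 0.222 and 0.211 in WT. SCRM had 68.3, 73.5 and 57.3 in SPCHΔ49 basl-2, 250.6, 216.9 and 164.1 in SPCHΔ49, and 43.2 and 45.8 in WT. Both genes had their highest SPCHΔ49 value in replicate 1 and their lowest in replicate 3. Replicate 1 was also the highest for 56.9% of the set and for 41.5% of all genes with a SPCHΔ49 mean of at least 5.

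**Figure D5:**
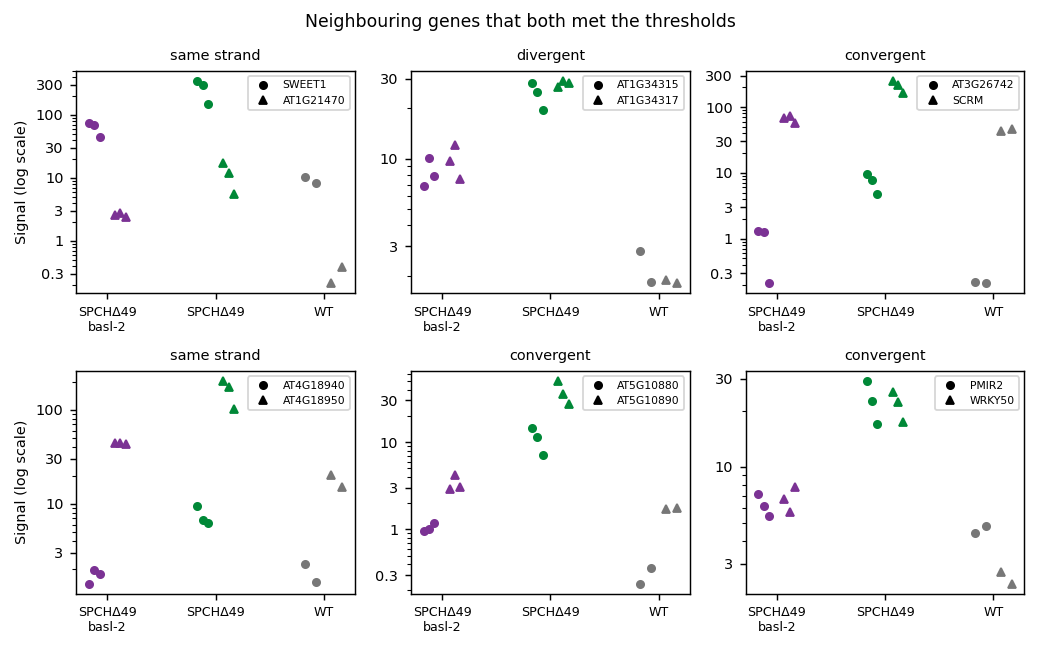
Signal (log scale) in each library of the 6 adjacent gene pairs that met the thresholds, with circles for the first and triangles for the second gene and the relative orientation above each panel. Levels within a pair can differ by over 10-fold, as for SWEET1 and AT1G21470 or AT3G26742 and SCRM, while both genes of each pair are highest in SPCHΔ49 by the way they were chosen.

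The neighbours outside the thresholds were mixed. Of 71 listed adjacent genes that did not meet the thresholds, 7 were lower and 2 higher in SPCHΔ49 basl-2 than in SPCHΔ49, beside 3.36% and 2.05% of all genes. In SPCHΔ49 against WT 14 of the 71 were higher and 13 lower, beside 9.9% and 17.3% of all genes. Of the 51 genes, 12 overlap an annotated gene on the opposite strand, 10 of them one that is also listed. No source used here says whether strand entered the quantification, and the values of such pairs are uncertain because they may share reads. AT2G47885 overlaps the glutaredoxin gene GRXC13 (AT2G47880) by 243 bases. AT2G47885 had 2.01, 0 and 1.78 in SPCHΔ49 basl-2, 24.1, 11.2 and 22.3 in SPCHΔ49, and 6.24 and 0 in WT. GRXC13 had 8.09, 8.75 and 4.17 in SPCHΔ49 basl-2, 14.4, 19.8 and 15.5 in SPCHΔ49, and 0.814 and 0.562 in WT. AT1G08645 overlaps PPCK1, the kinase of phosphoenolpyruvate carboxylase, by 472 bases. Within SPCHΔ49 both were highest in replicate 3, as were 37.9% of all genes with a SPCHΔ49 mean of at least 5.

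The sequence before the start of each gene was read from the RefSeq genome TAIR10.1 by gene identifier, since the deposited files give no coordinates and name no build. A window of 250 bases was searched for CANNTG, the E-box, and for CACGTG, the E-box form known as the G-box. Each is its own reverse complement, so 1 pass covers both strands, and every G-box counts as an E-box too. An E-box occurred in 30 of 51 windows of the set (58.8%), in 7 of 13 windows of the lineage genes set aside (53.8%) and in 56.3% of 18749 windows of listed genes. A G-box occurred in 6 of 51 windows of the set (11.8%), in 0 of 13 of the lineage genes and in 7.44% of the windows of listed genes. The windows of 10 of the 51 genes overlap another annotated gene. A match is a description of these letters and not a binding site. The windows below show the spread of match numbers among regulators and strongly changed genes of the set, each 5′ to 3′ on the strand of its gene and ending at the base before the annotated start, with each E-box in capitals. SWEET1 has 0 matches (chr1:7513482-7513731, minus strand), IAN6 has 2 (chr1:12323224-12323473, plus strand), NAC035 has 3 (chr2:647288-647537, plus strand) and ABI5 has 4, the most in the set, of which 3 are G-boxes (chr2:15207637-15207886, minus strand).
SWEET1: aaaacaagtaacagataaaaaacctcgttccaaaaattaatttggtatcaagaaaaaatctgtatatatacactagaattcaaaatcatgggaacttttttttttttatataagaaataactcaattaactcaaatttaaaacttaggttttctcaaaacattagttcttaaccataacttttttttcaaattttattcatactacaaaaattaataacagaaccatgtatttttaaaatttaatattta
IAN6: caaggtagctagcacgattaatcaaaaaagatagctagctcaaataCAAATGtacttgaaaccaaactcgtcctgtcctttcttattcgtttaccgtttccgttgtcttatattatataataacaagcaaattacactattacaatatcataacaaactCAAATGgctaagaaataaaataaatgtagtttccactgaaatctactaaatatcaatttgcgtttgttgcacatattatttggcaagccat
NAC035: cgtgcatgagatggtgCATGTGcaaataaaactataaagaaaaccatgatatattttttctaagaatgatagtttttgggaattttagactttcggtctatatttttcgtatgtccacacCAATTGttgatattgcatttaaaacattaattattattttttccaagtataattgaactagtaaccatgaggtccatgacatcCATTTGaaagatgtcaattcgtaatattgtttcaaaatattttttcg
ABI5: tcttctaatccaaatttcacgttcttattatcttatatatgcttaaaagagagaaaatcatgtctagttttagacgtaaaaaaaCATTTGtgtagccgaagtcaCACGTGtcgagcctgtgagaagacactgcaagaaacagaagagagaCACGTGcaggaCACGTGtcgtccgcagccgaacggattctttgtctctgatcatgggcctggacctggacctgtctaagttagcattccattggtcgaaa

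The 9 lists of lineage, cell type and pathway genes used beside the set show what else differed between the overexpressors. No gene of the set was in them, which says nothing about the set. The 11 lineage and 2 trichome list genes that met the thresholds had been set aside. The lists also left out relatives of their genes that are in the set, such as SMR8 and HDG5. Of 30 listed stomatal lineage regulators, 12 were lower in SPCHΔ49 basl-2 than in SPCHΔ49, beside 3.36% of all genes. Their median log2 fold change was -0.44. Of these 12, 11 are genes that the thresholds had found. The other was the epidermal homeodomain gene HDG2, with 22.0, 21.6 and 20.3 in SPCHΔ49 basl-2, 43.9, 44.4 and 42.0 in SPCHΔ49, and 15.6 and 13.5 in WT. Its log2 fold change in SPCHΔ49 basl-2 against SPCHΔ49 was -0.99 (limma adjusted p = 0.00342), and this call held under all 13 alternatives. Against WT, 7 regulators were higher and 2 lower in SPCHΔ49 basl-2, beside 12.6% and 21.6% of all genes. In SPCHΔ49 17 were higher and 2 lower, beside 9.9% and 17.3% of all genes. The 17 include the 11 genes that the thresholds had found, the transgene SPCH among them, and the 7 include SPCH, TMM and EPF2. The thresholds used SPCHΔ49 against WT, so these counts and the median of -0.44 partly follow from that choice and only describe the list. Of 16 guard cell markers 1 was higher and 1 lower in SPCHΔ49 basl-2 than in SPCHΔ49, beside 2.05% and 3.36% of all genes, with a median log2 fold change of 0.34. The guard cell MAP kinase gene MPK12 was the one that was higher (log2 fold change 0.44, limma adjusted p = 0.0315), a call lost after quantile normalization and without any single library other than SPCHΔ49 basl-2 replicate 3. The receptor kinase gene GHR1 was the one that was lower (log2 fold change -0.86, limma adjusted p = 0.0127), a call lost without SPCHΔ49 replicate 2. Against WT, 11 of the guard cell markers were higher and 2 lower in SPCHΔ49 basl-2, and 7 were higher and 1 lower in SPCHΔ49, beside the same shares of all genes as for the regulators.

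Cell cycle genes were the other list with many lower members. Of 19 listed, 11 were lower in SPCHΔ49 basl-2 than in SPCHΔ49, beside 3.36% of all genes, with a median log2 fold change of -0.82. The count was 1 without SPCHΔ49 basl-2 replicate 1 or without SPCHΔ49 replicate 2, 4 without SPCHΔ49 basl-2 replicate 2 and 7 without SPCHΔ49 replicate 3, while the median stayed between -0.64 and -1.07 under every alternative. The D-type cyclin gene CYCD3;1 (AT4G34160) had 14.1, 16.0 and 13.7 in SPCHΔ49 basl-2, 47.4, 39.6 and 33.3 in SPCHΔ49, and 17.3 and 20.4 in WT, and its call was kept under all 13 alternatives. The 19 include no gene that met the thresholds of the set. Over all genes, 12.6% were called higher and 21.6% lower in SPCHΔ49 basl-2 against WT, and 9.9% and 17.3% in SPCHΔ49 against WT. In SPCHΔ49 basl-2 against WT 10 were lower, with a median log2 fold change of -0.74, and the count was between 3 and 6 without either WT library, without SPCHΔ49 basl-2 replicates 1 or 2, or without SPCHΔ49 replicate 2. In SPCHΔ49 against WT 4 were higher and 1 lower, and 1 was higher without either WT library or without SPCHΔ49 replicate 2. Of 11 listed trichome and patterning genes, 2 were lower in SPCHΔ49 basl-2 than in SPCHΔ49, and these were ETC3 and MYC1, which the thresholds had found. Of 12 listed salicylic acid defence genes, none was called in SPCHΔ49 basl-2 against SPCHΔ49 by limma, with 0 at an unadjusted p under 0.05.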

How the data were processed

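Signals per gene were deposited for 8 libraries of 3 genotypes. Per the file headers the authors named them TPM, but library totals run from 852202 to 1075376, so they are treated as a rescaled signal; the scaling step is not stated, and the tests planned for TPM were used. Per the submitters' processing notes, Trimmomatic 0.38, kallisto 0.44.0 and sleuth were used; the build and strand setting were not found in these sources. Each of the 18855 genes has a signal of 1 or more in all libraries of some genotype, so the table is already filtered, and no other filter was applied.

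Genotypes were compared by limma 3.58.1 (R 4.3.3) on log2(signal + 1), which understates the change of low genes. All 8 libraries entered a fit of genotype means with trended variances, and p-values were Benjamini-Hochberg adjusted across the 18855 genes (threshold 0.05). Other values were computed in Python 3.11.15 with pandas 2.3.3. The set, its thresholds, the gene lists and the tests were chosen with earlier results of these data known.

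Genes were named by rule: SPCH and BASL; the 10 highest ratios of the SPCHΔ49 mean to the higher other mean, where that is at least 0.5; the 8 highest SPCHΔ49 means; the 8 largest called differences between SPCHΔ49 basl-2 and WT in each direction; regulators, receptors, peptides and transporters by annotation; genes at the thresholds; and up to 3 called genes per list. Others (AT3G51020, SMR8, PSAT, CYS2, AT3G49900, AT3G60520, AT3G14760, AT1G68500, neighbours, overlapping genes, a further 9 annotated genes and those highest in SPCHΔ49 replicate 3) were named after their values were seen. Names came from the deposited table (18 of the 51) or RefSeq, which matched all 51. Alternatives were a pseudocount of 0.1, a filter on a mean signal of 5, quantile normalization, median-ratio rescaling, the replicate number as a block, other folds (2 and 3) and leaving out each library.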

Additional observations from a re-analysis of the deposited data

How the results depend on the processing

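The number of genes found, 51, was 98 with a 2-fold and 32 with a 3-fold threshold, 53 after median-ratio rescaling and 52 after quantile normalization, and ran from 48 to 75 without single libraries, of which between 45 and 51 were of the 51. With only genes of a mean signal of at least 5 tested, 372 of all genes were lower in SPCHΔ49 basl-2 than in SPCHΔ49. In that setting, which tested fewer genes, 1922 were lower in SPCHΔ49 than in WT and 2436 in SPCHΔ49 basl-2 than in WT. In SPCHΔ49 basl-2 against WT 0 of the 51 were then lower, as AT1G64405 fell below the filter and was not tested. After quantile normalization 0 of the 51 were lower in SPCHΔ49 basl-2 than in WT (the cause was not tested), and the share of all calls that were higher became 50.6% in SPCHΔ49 against WT and 48.9% in SPCHΔ49 basl-2 against WT, beside 36.5% and 36.9% as deposited. Median-ratio rescaling and a pseudocount of 0.1 kept each count over all genes and over the 51 within 1.5 times.

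Same-numbered libraries did not deviate together in every pair (correlations from -0.169 to 0.756), so the numbers were not taken as pairs. With the replicate block 687 genes were higher in SPCHΔ49 basl-2 than in SPCHΔ49, and 387 without it; 26 of the 51 were then higher than in WT.

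Leaving out 1 library at a time, where a lone WT library is assumed to vary like the others, gave these ranges. In SPCHΔ49 basl-2 against SPCHΔ49, 70 to 547 of all genes were higher and 81 to 695 lower, with 26 to 43 of the 51 lower, the fewest without SPCHΔ49 replicate 2. In SPCHΔ49 against WT, 570 to 2101 were higher and 1677 to 3535 lower, with 41 to 50 of the 51 higher. In SPCHΔ49 basl-2 against WT, 779 to 2703 were higher and 2116 to 4349 lower, with 13 to 25 of the 51 higher and 0 to 1 lower. Unknown depth limits what low signals can show.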
